A study of Mus musculus with 6 samples.

Results

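The mRNAs of 9 genes of cytokine signalling were followed in c-Kit+ splenocytes from 6 mice. They were the transcription factor genes Stat2, Stat3, Stat4, Stat5a, Stat5b and Stat6 and the kinase genes Jak1, Jak2 and Jak3, taken by symbol from a table of 24054 genes of which 12223 were tested. All 9 members were in the table and all 9 were above the filter on low values, which is given under the processing. Splenocytes had been enriched with magnetic beads for c-Kit (CD117), the stem cell factor receptor on blood stem and progenitor cells. All 6 mice carried an internal tandem duplication of Flt3 on both alleles (Flt3ITD/ITD), which makes this receptor tyrosine kinase signal without its ligand. The AML group (acute myeloid leukaemia, 3 moribund mice) was Dnmt3afl/- with MxCre, so that Dnmt3a, a DNA methyltransferase, had 1 floxed and 1 null allele. The MPN group (myeloproliferative neoplasm, 3 control mice) was Dnmt3afl/fl, and no Cre is named for it. The Mx promoter that drives this Cre responds to interferon, and the labels name no inducing agent and no age. Genotype, Cre and disease therefore changed together and cannot be told apart.

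Janus kinases sit on the inner side of cytokine receptors and become active when a cytokine joins the receptor chains. They then place phosphate on STAT proteins, which pair, enter the nucleus and bind DNA. In blood cells, JAK2 serves the receptors for erythropoietin and the interleukin-3 family, JAK3 serves receptors that use the common gamma chain, and JAK1 serves many receptors beside either. STAT5A and STAT5B are activated by those growth signals and also by Flt3-ITD. STAT2 joins IRF9 in the complex that answers type I interferon, STAT3 answers interleukin-6 and G-CSF, STAT4 answers interleukin-12, and STAT6 answers interleukin-4. Activation is a change of the proteins, and mRNA levels do not measure it.

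Levels are given in TPM, a share of all transcripts corrected for transcript length, which lets genes be set side by side, with mean ± SD over 3 mice. Dnmt3a mRNA in AML was 39.3% of its MPN level. Flt3, the mutant receptor of both groups, was higher in AML (167 against 110 TPM). Kit averaged 119 ± 17.3 TPM in the AML mice and 147 ± 4.17 TPM in the MPN mice, so the marker of the sort was present in both groups (adjusted p = 0.103). Markers of mature neutrophils were also present, with summed levels of 6885 to 20615 TPM in AML and 30426 to 48248 TPM in MPN. The sequencing depth relative to the other libraries ran from 0.749 in AML replicate 3 to 1.31 in AML replicate 1. AML replicates 1 and 2 were female by their Xist level (186 and 194 TPM, at most 0.06 TPM in the others), and the other 4 mice were male. AML replicate 3 is thus the male AML mouse, and the fold change of a fit with a term for sex sets that mouse against the 3 MPN mice. The female AML mice enter that fit only through their spread. The file headers put MPN replicate 1 in a separate run from the remaining 5 libraries. In bulk RNA, fewer cells of a type and less RNA per cell cannot be told apart.

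Of the 9 members, Stat2 and Stat3 fell in AML, none rose, and 7 did not pass the threshold (an adjusted p of 0.05 over all tested genes). Over all tested genes 30.1% passed, with 20.1% higher and 10.0% lower in AML. The groups did not overlap for 3 members, Stat2, Stat3 and Jak2, against 50.9% of all tested genes. The median log2 fold change of the members was -0.15, beside 0.13 for all tested genes.

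**Figure D1:**
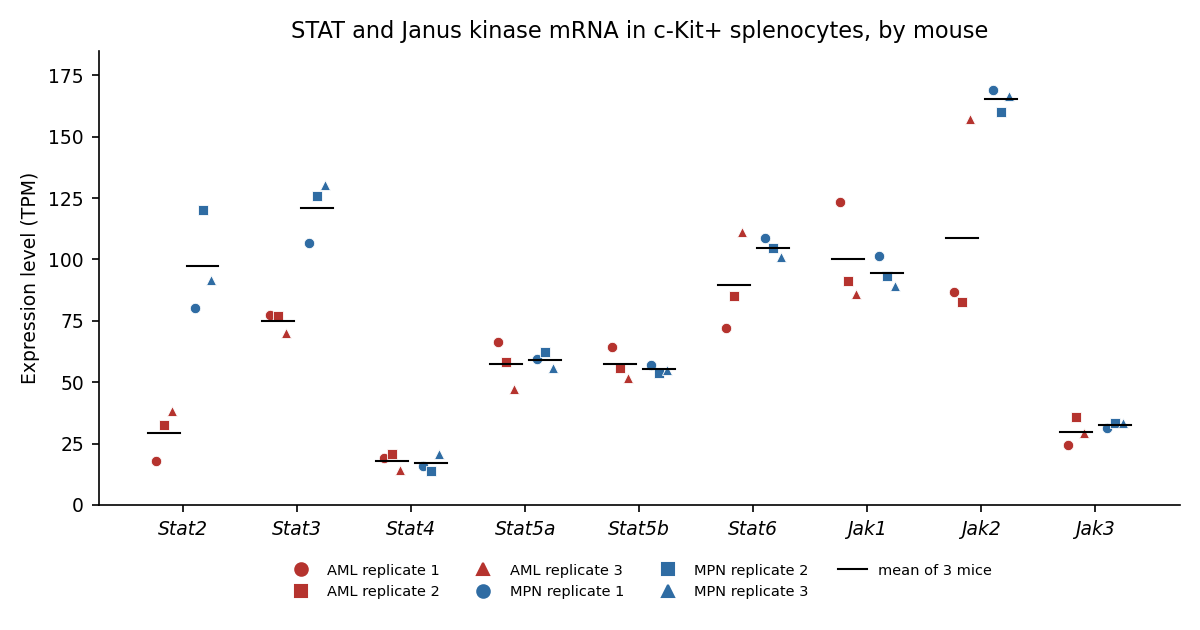
Expression level (TPM, vertical axis) of the 9 members (horizontal axis) in the 3 AML mice (red) and the 3 MPN mice (blue), with the replicate given by the symbol and the mean of each group by a black line. Stat2 and Stat3 separate the groups, Jak2 of AML replicate 3 stands at 157 TPM near the MPN mice, and Stat5a and Stat5b of both groups lie between 47.2 and 66.5 TPM.

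Stat2, the partner of IRF9 in the type I interferon response, had the largest difference of the 9. Its level was 17.8, 32.5 and 38.2 TPM in AML replicates 1 to 3 and 80.1, 120 and 91.5 TPM in MPN replicates 1 to 3. Every AML mouse lay below every MPN mouse, and AML replicate 1 was lowest. The mean was 29.5 ± 10.5 TPM in AML, 30.3% of the 97.3 ± 20.7 TPM in MPN. This was a log2 fold change of -1.74 ± 0.29 (SE), with an adjusted p of 0.00484 and a 95% interval of -2.40 to -1.07. Leaving out any 1 mouse gave -1.95 to -1.42 with adjusted p of 0.00307 to 0.0297. Allowing for sex, the fold change was -1.31 and the call ended, with an adjusted p of 0.0632. The exact two-sided permutation test gave 0.1, the smallest p that 3 mice against 3 allow, for Stat2, Stat3 and Jak2 alike. By RPKM, a unit of the second table, AML stood at 30.5% of MPN.

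In GRCm38, Stat2 (ENSMUSG00000040033) occupies bases 128270559 to 128292849 of chromosome 10, plus strand. Irf9, which encodes the DNA-binding partner of STAT2, stood at 26.0, 36.6 and 41.2 TPM in AML and 110, 129 and 134 TPM in MPN. Like Stat2 it was lowest in AML replicate 1, and its groups did not overlap. It fell by 1.83 (SE 0.18) in log2 units (adjusted p = 0.000669). All 21 genes listed as STAT2-IRF9 targets, Irf9 among them, fell, with a median log2 fold change of -2.37, beside 10.0% of all tested genes lower. As the list was chosen with results of these data known, its direction is no independent evidence. With a term for sex, 18 of the 21 were called lower. Of the 21, 3 genes, Ifit3 and Ifi44 among them, were under 1 TPM in every AML mouse, so they reached the filter through the MPN mice alone and had to differ. They were not tested when an MPN mouse was left out, and of the 18 genes that were, 18, 15 and 14 were called lower without MPN replicate 1, 2 and 3. Without an AML mouse, 20 or 21 were called. Usp18, which removes the ISG15 tag and dampens interferon receptor signalling, was at 1.16, 4.32 and 2.99 TPM in AML and 35.7, 62.5 and 57.8 TPM in MPN. Ifit3, an interferon-induced protein that binds viral RNA complexes, was at most 0.57 TPM in AML and at least 17.9 TPM in MPN. Ifi44 and Oas2, also interferon-induced, had log2 fold changes of -4.18 and -3.71. Markers of other cells moved in the same direction. Of 11 tested macrophage and monocyte markers 8 fell and 1 rose, and the list summed to 584 to 1661 TPM in AML against 1350 to 1441 TPM in MPN. Most of that sum was Ly6c2, a monocyte surface gene that did not pass (adjusted p = 0.926), and the rest summed to 123 to 295 TPM against 690 to 727 TPM. Of 10 dendritic cell markers 5 fell, Bst2 of the STAT2-IRF9 list among them, and 1 rose. These markers summed to 509 to 1876 TPM in AML against 1950 to 2493 TPM in MPN. Their part in these results was not tested.

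The promoter windows of RefSeq (GRCm38.p6, 250 bases before to 50 after a start) held all 9 members. They were searched on both strands for the interferon-stimulated response element (GAAA, any 2 bases, then GAAA) and for the STAT site TTCNNNGAA. Of 32851 windows of this length, 3.44% held the first and 8.30% the second. Stat2 held 1 response element 222 bases before its start, and 1 of 2 windows of Stat4, a gene that did not pass, held 1 at 97 bases before its start. No window of the other members held the response element, and none of the members' windows held the STAT site. The windows of Stat2 and Stat3, the members that fell, and the Stat4 window with a match are shown 5′ to 3′, with the letters of a match in capitals. Stat2 is chr10:128270248-128270547 on the plus strand, Stat3 chr11:100939491-100939790 on the minus strand and Stat4 chr1:52007990-52008289 on the plus strand. A match describes letters and is no evidence of binding.
Stat2: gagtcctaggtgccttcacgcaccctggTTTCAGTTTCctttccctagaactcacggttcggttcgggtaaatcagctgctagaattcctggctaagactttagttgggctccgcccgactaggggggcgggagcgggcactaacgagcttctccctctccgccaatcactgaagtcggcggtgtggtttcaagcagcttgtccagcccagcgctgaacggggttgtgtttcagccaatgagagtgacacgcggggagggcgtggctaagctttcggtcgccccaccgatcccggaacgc
Stat3: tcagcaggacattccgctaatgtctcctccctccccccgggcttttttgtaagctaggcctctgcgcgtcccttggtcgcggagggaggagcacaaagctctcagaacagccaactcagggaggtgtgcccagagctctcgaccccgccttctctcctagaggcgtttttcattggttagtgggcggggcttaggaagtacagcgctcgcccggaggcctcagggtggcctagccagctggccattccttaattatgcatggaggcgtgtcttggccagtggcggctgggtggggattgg
Stat4: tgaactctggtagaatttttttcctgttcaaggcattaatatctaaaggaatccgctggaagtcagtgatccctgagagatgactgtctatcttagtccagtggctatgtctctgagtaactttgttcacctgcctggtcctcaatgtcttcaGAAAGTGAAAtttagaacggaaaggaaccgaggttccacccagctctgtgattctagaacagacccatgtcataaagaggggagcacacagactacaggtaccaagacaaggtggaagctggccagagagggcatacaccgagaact

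Stat3, which carries signals of interleukin-6 and G-CSF, was at 77.5, 76.9 and 69.9 TPM in AML and 107, 126 and 130 TPM in MPN. The AML mice lay close together, within 1.11-fold of each other, and all were below the MPN mice. The mean was 74.8 ± 4.19 TPM in AML, 61.9% of 121 ± 12.6 TPM in MPN. The difference of -0.68 ± 0.12 (SE) in log2 had an adjusted p of 0.00556 and a 95% interval of -0.95 to -0.41. It passed in all 16 alternative settings, with fold changes of -0.77 to -0.62. The RPKM table gave 61.7% of MPN.

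Among genes upstream of STAT3, Il6st, which encodes the shared receptor chain gp130, was at 11.9, 32.6 and 15.7 TPM in AML and 107, 92.5 and 132 TPM in MPN. It fell by 2.51 ± 0.34 (SE) in log2 (adjusted p = 0.00222). Il6ra, the interleukin-6 binding chain, had a log2 fold change of -0.91 (adjusted p = 0.0118). Among the receptors that couple to Janus kinases, 12 of 30 tested genes were called lower and 4 higher, with Il10ra among those lower. Some receptor genes did not share the fall of Il6st and Il6ra. Csf3r, the G-CSF receptor, did not pass (log2 fold change -0.36, adjusted p = 0.578). Il11ra1, an interleukin-11 receptor chain, rose by 0.88 in log2 (adjusted p = 0.0143), and Lifr had 0.48 and did not pass (adjusted p = 0.652). Among 13 tested targets of STAT3, 2 genes rose and 2 fell, and the list's median log2 fold change was 0.11. Over all tested genes 20.1% were higher and 10.0% lower, so the list lay near these shares. The adhesion gene Icam1 and Bcl3, a regulator of NF-kappaB, had log2 fold changes of -1.79 and -1.60. Vegfa, a vascular growth factor, and Cebpb, a myeloid transcription factor, had 0.84 and 1.04. Both rises ended without AML replicate 2 or MPN replicate 2 or 3, that of Cebpb also without MPN replicate 1 (adjusted p between 0.0516 and 0.0733). In the fit that includes sex, all 4 calls ended (adjusted p between 0.0802 and 0.255). Socs3, an inhibitor induced by STAT3, had overlapping groups at 9.44, 4.83 and 6.12 TPM in AML against 2.75, 3.96 and 8.72 TPM in MPN.

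**Figure D2:**
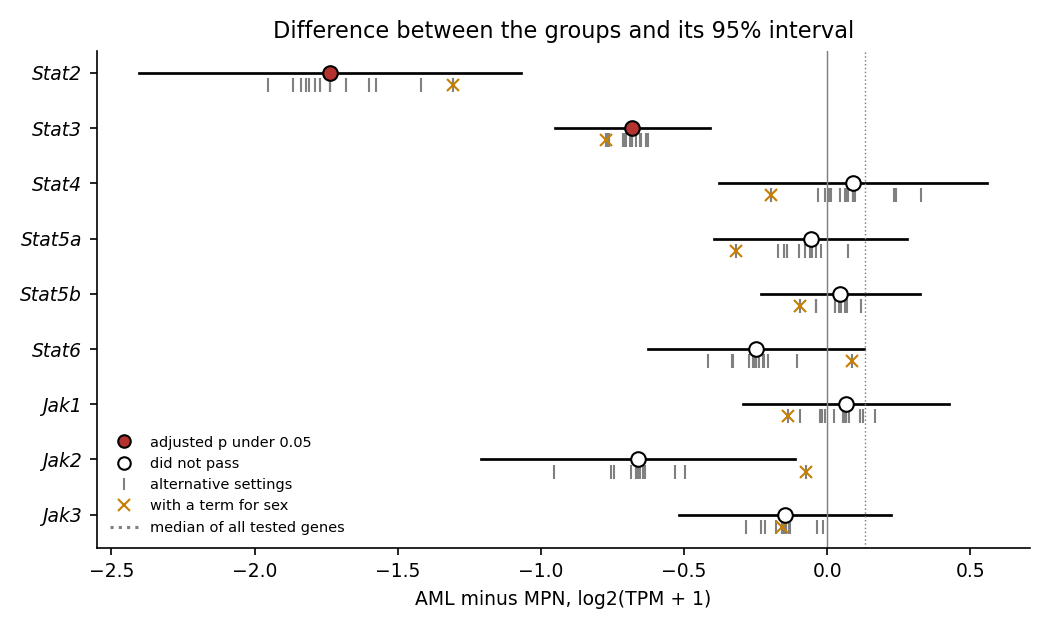
Difference AML minus MPN on the log2(TPM + 1) scale (horizontal axis) for the 9 members, with the 95% interval as a bar, filled circles for members with an adjusted p under 0.05, grey ticks for the alternative settings and a cross for the fit with a term for sex. Stat2 and Stat3 are filled, and the cross of Jak2 stands at -0.07 while its main value is -0.66.

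Stat5a and Stat5b, the STAT factors downstream of Flt3-ITD, did not pass. Stat5a was at 66.5, 58.2 and 47.2 TPM in AML and 59.3, 62.3 and 56.0 TPM in MPN. Stat5b was at 64.4, 55.8 and 51.6 TPM in AML and 57.0, 53.8 and 54.8 TPM in MPN. For both genes the MPN mice lay inside the range of the AML mice, in which replicate 1 was highest and replicate 3 lowest. For Stat5a the log2 fold change was -0.06, with a 95% interval of -0.40 to 0.28 (adjusted p = 0.779). That of Stat5b was 0.05, with a 95% interval of -0.23 to 0.32 (adjusted p = 0.788). These intervals do not include a change of 1 on the log2 scale in either direction.

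The pair are closely related neighbours on chromosome 11, so that some reads could be counted for either, which makes the split between them uncertain. Stat5b (ENSMUSG00000020919, minus strand) spans 100780731 to 100850724. Stat5a (ENSMUSG00000004043, plus strand) spans 100859351 to 100885169, a gap of 8626 bases. Of all 75-base windows in the GENCODE M21 transcripts, 5.12% of those of Stat5a and 6.99% of those of Stat5b occur in the other gene. Their sum avoids that split and was 131, 114 and 98.8 TPM in AML and 116, 116 and 111 TPM in MPN. The sum averaged 115 ± 16.1 TPM and 114 ± 3.10 TPM. The ratio of Stat5a to Stat5b was 1.03, 1.04 and 0.915 in AML and 1.04, 1.16 and 1.02 in MPN. By RPKM this ratio was 1.55, 1.55 and 1.43 in AML and 1.58, 1.71 and 1.53 in MPN, so their relative level depends on the table. Stat3 (ENSMUSG00000004040, 100885098 to 100939540 on the minus strand) adjoins Stat5a, and the 2 genes overlap by 72 bases.

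While Stat5a and Stat5b did not pass, 10 of 17 STAT5 target genes rose, 2 fell and 5 did not pass. Their median log2 fold change was 1.51, beside 20.1% of all tested genes higher. The list was chosen with results of these data known, so its direction is no independent evidence. Cish, a feedback inhibitor of STAT5, was at 146, 72.8 and 138 TPM in AML and 10.1, 7.52 and 7.26 TPM in MPN. Socs2, an inhibitor of the same family, was at 216, 161 and 159 TPM in AML and 28.4, 24.2 and 26.2 TPM in MPN. Both genes were higher in every AML mouse than in any MPN mouse (log2 fold change 3.64, adjusted p = 0.000267 for Cish, and 2.71, adjusted p = 0.000119 for Socs2). The survival kinase gene Pim2 and the growth regulator Myc had log2 fold changes of 2.32 and 1.59. The same 10 genes were called higher in all 16 alternatives. Most markers of megakaryocytes and mast cells were also higher in AML, while those of progenitors were mixed. Of 6 tested megakaryocyte and mast cell markers, 4 rose and none fell, with a sum of 151 to 237 TPM in AML and 46.3 to 90.1 TPM in MPN. Cpa3, a mast cell protease gene, and Itga2b, a platelet integrin gene, had log2 fold changes of 2.44 and 2.26. The platelet genes Pf4 and Gp1bb did not pass, at 0.05 and 0.01 (adjusted p = 0.932 and 0.984). Of 7 progenitor markers, 3 rose (Cd34, Myb and Flt3), 1 fell (Ly6a) and 3 did not pass, Kit among them. The progenitor markers had overlapping sums of 2906 to 7586 TPM in AML and 2603 to 3653 TPM in MPN. Their part in the STAT5 target values was not tested.

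Stat4, which carries interleukin-12 signals in T and NK cells, was the least abundant member by mean level in both groups. It was at 19.1, 20.6 and 14.4 TPM in AML and 16.0, 13.9 and 20.8 TPM in MPN, with overlapping groups. It differed by 0.09 in log2, with a 95% interval of -0.38 to 0.56 (adjusted p = 0.755). Stat4 (ENSMUSG00000062939, chromosome 1, 51987148 to 52107189, plus strand) shares 19.5% of its 75-base windows with the predicted gene Gm28177, so its level is uncertain. Of 15 tested T and NK cell markers, 13 fell and 1 rose, with summed levels of 307 to 496 TPM in AML and 371 to 469 TPM in MPN. Of the 15, 9 were under 1 TPM in every AML mouse, so they reached the filter through the MPN mice alone and had to differ. The gene that rose, the granule gene Nkg7, made up most of the AML sum, and the rest summed to 12.5 to 28.7 TPM in AML against 254 to 379 TPM in MPN. Of 7 tested STAT4 partner and target genes, 3 rose and 3 fell, beside 20.1% higher and 10.0% lower over all tested genes. Il18r1 and Il12rb1, receptor chains for interleukins 18 and 12, had log2 fold changes of 2.93 and 1.84. Tbx21, the T-bet transcription factor, and Gzma, a granzyme of killer cells, had -1.65 and -0.95, with low levels of 4.52 ± 2.66 and 1.75 ± 0.630 TPM in MPN. Both falls ended with a term for sex (adjusted p = 0.173 and 0.142), and Gzma did not reach the filter when an MPN mouse was left out. Ifng, the interferon that STAT4 induces, was listed at 0 in all AML mice and at 0.13, 0.41 and 0.18 TPM in MPN, below the filter.

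Stat6, the factor of interleukin-4 and interleukin-13, was at 71.9, 85.2 and 111 TPM in AML and 109, 105 and 101 TPM in MPN. AML replicates 1 and 2 lay below all MPN mice and AML replicate 3 above them. Its log2 fold change was -0.25, with a 95% interval of -0.63 to 0.13 (adjusted p = 0.273). It was 0.09 with a term for sex (adjusted p = 0.802). Stat6 (ENSMUSG00000002147, 127642986 to 127660957, plus strand) lies 609601 bases from Stat2 on chromosome 10. Of 9 tested STAT6 target genes, 2 rose, 3 fell and 4 did not pass, beside 20.1% higher and 10.0% lower over all tested genes. Fcer2a, the IgE receptor of B cells, and Mrc1, the mannose receptor of macrophages, had -1.79 and -3.13 in log2, and the chemokine Ccl22 had -2.13. Gata3, a lymphoid transcription factor, had 1.62. Fcer2a was at most 0.12 TPM in AML and Gata3 at most 0.54 TPM in MPN. Each reached the filter through 1 group alone, and neither was tested when a mouse of that group was left out. The Ccl22 call ended with a term for sex (adjusted p = 0.0763). B cell markers, of which 5 of 6 tested fell, Fcer2a being 1 of these 5, summed to 27.6 to 37.8 TPM in AML and 65.7 to 83.4 TPM in MPN. Of the 6, 4 were under 1 TPM in every AML mouse, so they reached the filter through the MPN mice alone and had to differ. Without Cd79b, which did not pass, the B cell markers summed to at most 3.89 TPM in AML against 38.7 to 45.2 TPM in MPN. Their part in the STAT6 target values was not tested.

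Jak2, the kinase of the erythropoietin receptor, was the most abundant member by mean level in both groups. It was at 86.8, 82.6 and 157 TPM in AML and 169, 160 and 167 TPM in MPN. All AML mice lay below all MPN mice, but AML replicate 3 was within 0.07 of the MPN mean on the log2 scale, while replicates 1 and 2 were at -0.92 and -0.99. The mean was 109 ± 41.8 TPM in AML, 65.9% of 165 ± 4.80 TPM in MPN. In log2 the difference was -0.66 ± 0.23 (SE), with a 95% interval of -1.21 to -0.11, and missed the threshold at an adjusted p of 0.0698. It passed without AML replicate 3 (-0.96, adjusted p = 0.00219) and with array weights (-0.67, adjusted p = 0.0189), and was -0.07 with a term for sex (adjusted p = 0.806). Sex and mouse cannot be told apart here, since AML replicate 3 is the 1 male AML mouse. Jak2 (ENSMUSG00000024789) spans 29251828 to 29313080 of chromosome 19, plus strand.

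Epor and Csf2rb, which encode receptor chains that use JAK2, did not pass. Epor, the erythropoietin receptor, was at 15.8, 5.58 and 0.41 TPM in AML and 33.7, 31.0 and 15.9 TPM in MPN (adjusted p = 0.0689). Csf2rb, the shared beta chain of the interleukin-3 and GM-CSF receptors, had a log2 fold change of -0.35 (adjusted p = 0.0519). Summed erythroid markers were 1297, 690 and 71.7 TPM in AML replicates 1 to 3 and 2956, 1163 and 460 TPM in MPN, so the AML mouse with the highest Jak2 had the lowest erythroid sum. Without the globin gene Hbb-b1, the most abundant of them, the sums were 347, 207 and 60.8 TPM in AML and 1487, 546 and 190 TPM in MPN. Of the 9 erythroid markers, 1 fell and 8 did not pass. Their part in the Jak2 levels was not tested.

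Jak1 was at 123, 91.1 and 85.7 TPM in AML and 101, 93.1 and 89.2 TPM in MPN, with overlapping groups. It differed by 0.07 in log2, with a 95% interval of -0.29 to 0.42 (adjusted p = 0.769). Jak3, the kinase of the common gamma chain, was at 24.3, 35.9 and 29.3 TPM in AML and 31.4, 33.5 and 33.5 TPM in MPN. Its log2 fold change was -0.15, with a 95% interval of -0.52 to 0.22 (adjusted p = 0.499). Its receptor partner Il2rg, the common gamma chain, fell from 191 ± 46.1 to 101 ± 19.1 TPM (adjusted p = 0.0166). Jak1 (ENSMUSG00000028530) spans 101152367 to 101265282 of chromosome 4, minus strand. Jak3 (ENSMUSG00000031805) spans 71676296 to 71690575 of chromosome 8, plus strand. Jak3 shares 6.01% of its 75-base windows with Insl3, whereas Jak1, Jak2, Stat3 and Stat6 share none with any other gene.

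**Figure D3:**
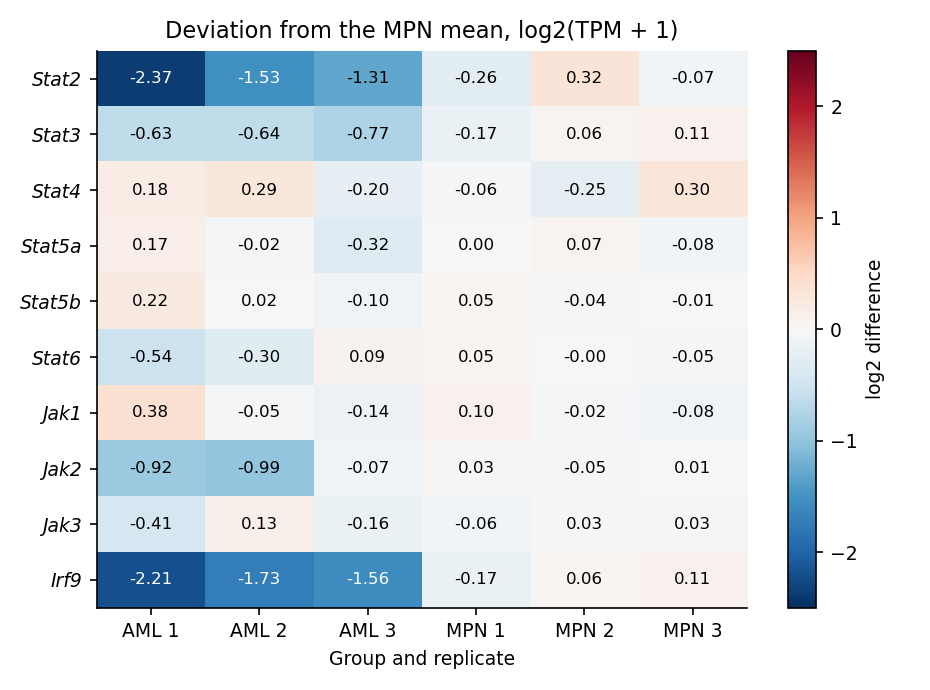
Deviation of each mouse (columns) from the mean of the MPN mice in log2(TPM + 1) for the 9 members and Irf9 (rows), with blue below and red above the MPN mean. Stat2, Stat3 and Irf9 are below the MPN mean in all 3 AML mice, whereas Jak2 is at -0.92, -0.99 and -0.07.

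The AML mice differed more among themselves than the MPN mice for 7 of the 9 members, all but Stat3 and Stat4. The median over all tested genes was also higher in AML, and the share of all genes in that direction was not counted. The SD of log2(TPM + 1) in AML was 0.56 for Stat2, 0.51 for Jak2 and 0.31 for Stat6, beside a median of 0.21 over all tested genes. In MPN it was 0.04 for Jak2 and 0.05 for Stat6, beside a median of 0.16. By mean TPM, the order in MPN was Jak2, Stat3, Stat6, Stat2, Jak1, Stat5a, Stat5b, Jak3 and Stat4. The ranges of neighbours overlapped from Stat3 to Jak1 and between Stat5a and Stat5b, and not elsewhere. In AML the order was Jak2, Jak1, Stat6, Stat3, Stat5a, Stat5b, Jak3, Stat2 and Stat4, with gaps between ranges below Stat3 and below Stat5b. Stat2 thus stood between Stat6 and Jak1 in MPN and next to last in AML by TPM. The order depends on the unit. By mean RPKM in MPN, Stat3 (34.6) stood below Stat6 (52.5), Stat2 (42.1) and Jak1 (36.1). By mean RPKM in AML, Stat2 (12.8) stood above Jak3 (11.9).

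As a share of the summed level of these 6 STAT genes, Stat2 made up 5.60%, 9.86% and 11.5% in AML and 18.7%, 25.0% and 20.1% in MPN. Stat5a and Stat5b had mean shares of 17.6% and 17.6% in AML and 13.0% and 12.2% in MPN, although their own levels did not pass. All 6 STAT genes together summed to 317, 329 and 333 TPM in AML and 428, 481 and 454 TPM in MPN. Among the 3 kinase genes, Jak2 held 37.0%, 39.4% and 57.7% in AML and 56.0%, 55.8% and 57.6% in MPN. The ratio of Jak1 to Jak2 was 1.42, 1.10 and 0.546 in AML and 0.599, 0.582 and 0.535 in MPN, so AML replicate 3 lay within the MPN range. Shares were described with no test.

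**Figure D4:**
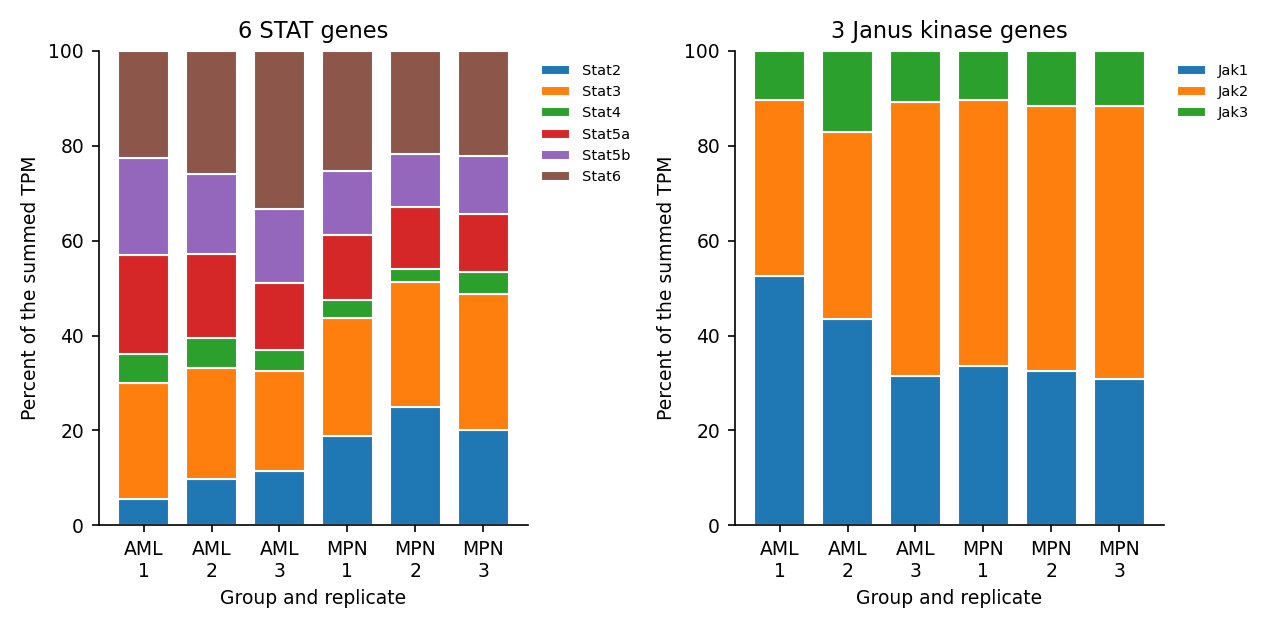
Percent of the summed TPM (vertical axis, from 0 to 100) held by each of the 6 STAT genes (left) and the 3 kinase genes (right) in each mouse. The Stat2 band is 5.60% to 11.5% in the AML mice and 18.7% to 25.0% in the MPN mice, and the Jak2 band of AML replicate 3 matches those of the MPN mice.

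Among the receptors that couple to Janus kinases, 12 of 30 tested genes were called lower, 4 higher and 14 neither, with a median log2 fold change of -0.41. The share lower of all tested genes was 10.0% and the share higher 20.1%. Il10ra, the interleukin-10 receptor, was at 65.2, 63.1 and 98.0 TPM in AML and 196, 221 and 242 TPM in MPN, and fell by 1.55 ± 0.18 (SE) in log2. Il2rb, the beta chain of the interleukin-2 and interleukin-15 receptors, Il7r and Il9r were low in both groups and lower in AML. Il2rb was at most 1.05 TPM in AML and at least 8.02 TPM in MPN, and Il7r and Il9r differed by -2.18 and -1.89 in log2. Il9r was at most 0.05 TPM in AML and reached the filter through the MPN mice alone, so it was not tested without any 1 of them. Il2rb is also 1 of the 13 T and NK cell markers that fell, and 5 of 6 tested B cell markers fell too. The limits of both lists are given with Stat4 and Stat6. Their part in the receptor values was not tested. Among the 23 inhibitors of the pathway, 3 were called higher and 6 lower, with a median of -0.02. Beside Cish and Socs2, which rose, and Usp18, which fell, the phosphatase gene Ptprc, which encodes CD45 of white blood cells, fell from 380 ± 17.9 to 181 ± 41.5 TPM (adjusted p = 0.00384).

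**Figure D5:**
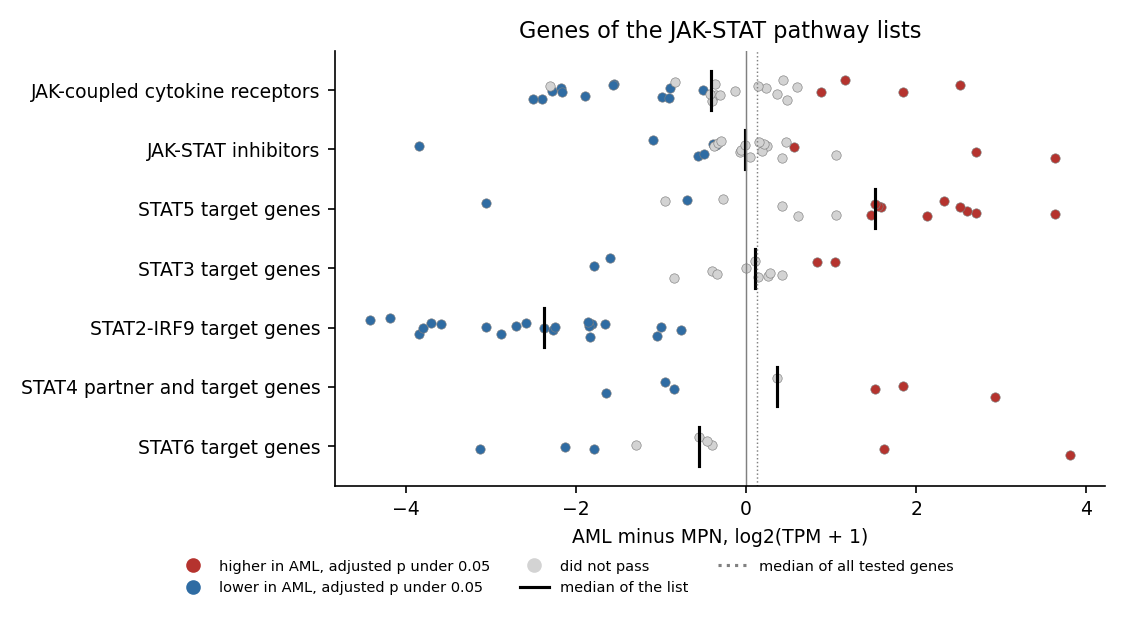
Log2 fold change AML minus MPN (horizontal axis) of each tested gene in 7 pathway lists (rows), red where higher and blue where lower in AML at an adjusted p under 0.05, with a black line at the median of each list. The medians run from -2.37 for STAT2-IRF9 targets to 1.51 for STAT5 targets, and some genes are in more than 1 list.

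Genes most like each member were ranked by Pearson's r of log2(TPM + 1) over the 6 libraries, among 9719 named genes with a mean of at least 5 TPM. With mice in 2 groups, r follows any difference between the groups, so it is a description. Stat2 was most like Epsti1 (r = 0.998) and Mnda (0.996), both interferon-induced, and 299 genes reached an r of 0.95. Stat3 was most like Trim21 (0.995), an antibody receptor inside cells, and Rsad2 (0.992), an antiviral enzyme. Jak2 was most like Pqlc1 (0.993) and Kdm5d (0.992), a histone demethylase gene on the Y chromosome. Kdm5d was listed at 0 in AML replicates 1 and 2 and was at 13.9 TPM in AML replicate 3 and at 12.4 to 20.3 TPM in MPN, so Jak2 was low in the mice without Y-linked transcripts. Stat6 was most like Havcr2 (0.999), an inhibitory receptor, and Gpr137b (0.997). Jak1 was most like Zbtb39 (0.996) and Frat1 (0.991), and Jak3 most like Ebp (0.997), a sterol enzyme, and Osgep (0.984). Stat5a was most like Cenpa (0.989), a centromere histone, and Gypc (0.958), and Stat5b most like Traf3 (0.989) and Pcnx (0.983). For Stat4 no gene reached 0.95, and the first 2 were Vps18 (0.948) and Dirc2 (0.939).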

How the data were processed

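RNA-seq was measured in c-Kit+ splenocytes of 6 mice, grouped by their titles as 3 AML and 3 MPN. Per the labels' protocols, poly-A selected, stranded libraries were read as pairs of 75 bases. TPM values per gene symbol were deposited by the authors, RSEM output per the file headers, 1 column per mouse. RPKM values per Ensembl identifier were also deposited by the authors, and 25213 of 25991 identifiers matched a symbol. Relative depth came from the size of 1 read's step among low RPKM values (all within 0.05 of a step). The submitters' processing notes name TopHat2, RSEM, Bowtie2, mm9 and mm10 without a role, and which build belongs to each table is not given there.

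The test, limma's moderated test with a trend (limma 3.58.1, R 4.3.3), ran on log2(TPM + 1) of the 12223 genes that reached 1 TPM in 3 or more libraries. It was two-sided, with Benjamini-Hochberg adjustment. Fold changes on this scale understate those of low genes. The script was tested on simulated data. Alternatives were pseudocounts of 0.1 and 5, array weights, no trend, a stricter filter (5 TPM) or none, quantile normalization or median scaling, the RPKM table, a term for sex and leaving out each mouse. Members and lists were chosen with earlier results of these data known. Named genes are the 4 smallest p-values of each list and the 2 genes most like each member. Il6st, Il6ra, Csf3r, Il11ra1, Lifr, Epor, Csf2rb, Il2rg, Socs3 and Ifng fall outside this rule and were picked with their values in view. So do some of the marker genes named. Some genes the rule names are not reported here. Nothing in the labels says how separate the samples of a group are beyond 1 library per mouse, and p-values measure the spread between these mice.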

Additional observations from a re-analysis of the deposited data

How the results depend on the processing

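Stat3 stayed below the threshold of adjusted p in all 16 alternatives and Stat2 in 15, all but the term for sex. No member was called higher in any alternative. With a term for sex, 1 member was called lower in place of 2. Directions of members that did not pass turned as follows, in log2 fold changes. Under median scaling, Stat5b was at -0.038 and Jak1 at -0.019. Under quantile normalization, Stat5b was at -0.040 and Jak1 at -0.0080, and with array weights Jak1 was at -0.024. With a term for sex, Stat4, Stat5b and Jak1 were at -0.20, -0.096 and -0.14 and Stat6 at 0.085. Without 1 mouse, Stat4 ranged from -0.033 to 0.24, Stat5a from -0.17 to 0.072, Stat5b from -0.040 to 0.12 and Jak1 from -0.094 to 0.17.

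Over all genes, array weights called 2131 lower, and a term for sex 673 higher and 535 lower. Without 1 mouse, 1198 to 2024 were higher and 514 to 1379 lower, the fewest without MPN replicate 2. Without MPN replicate 1, within 1 sequencing run, 1447 were higher and 560 lower. A filter at 5 TPM left 1 STAT6 target higher and 1 STAT4 gene lower, and by RPKM these counts were 1 and 0. Array weights called 7 receptors higher and 6 STAT6 targets lower. With a term for sex, 2 receptors and 0 STAT3 targets were higher, and 2 inhibitors, 0 STAT5, 0 STAT3 and 0 STAT4 genes lower. Without 1 mouse, receptors ranged from 2 to 6 higher and 7 to 13 lower, inhibitors from 2 to 5 lower, STAT5 targets from 1 to 3 lower, STAT3 targets from 0 to 2 higher, STAT4 genes from 1 to 3 lower and STAT6 targets from 0 to 2 higher. Of all calls, 66.7% were higher, against 59.0% under median scaling and 55.7% with a term for sex. The cause was not tested. The fits without 1 mouse rest on fewer mice, and with a term for sex the fold change rests on 1 AML mouse. In the RPKM table the mean share of Stat3 was 16.0% in AML and 18.8% in MPN, beside 22.9% and 26.6% in TPM. No paired analysis was possible because replicate numbers follow accession order. TPM keeps no depth, so counting error is not given.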
